A study of Mus musculus with 3 samples.

Results

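Bone morphogenetic protein (BMP) signaling was followed here through 10 genes, chosen by symbol from the 31053 genes listed for all 3 single-cell libraries. They are 4 ligands (*Bmp2*, *Bmp4*, *Bmp6* and *Bmp7*), 2 receptors (*Acvrl1*, encoding ALK1, and *Eng*, encoding endoglin), 2 inhibitory SMADs (*Smad6* and *Smad7*) and 2 inhibitor-of-differentiation genes (*Id1* and *Id3*). The libraries were made from cells sorted from the Peyer's patches (PP), lymphoid organs of the gut wall, of mice aged 6 to 10 weeks, 14 to 19 days after tamoxifen. The control library is titled WT with the strain C57BL/6, and the study's methods name littermates without the Cre transgene as controls. The 2 EC-iCOUP_OE libraries, replicates 1 and 2, carry the strain label CDH5(PAC)CreERT2;COUP-TFIIOE/OE. In EC-iCOUP_OE mice a Cre recombinase driven by the endothelial *Cdh5* promoter, active only after tamoxifen, switches on COUP-TFII, the venous transcription factor encoded by *Nr2f2*. Male and female animals were mixed in each library, and the number of mice and the day of isolation of a given library are not stated in the sources used here. With 1 control library no test between genotypes was made, and values are given with counting intervals, which leave out the variation between animals.

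BMP ligands are secreted dimers of the TGF-beta family that assemble type I and type II receptor kinases and lead to phosphorylation of SMAD1, SMAD5 and SMAD9. Endothelial cells (EC) carry a type I receptor of their own, ALK1, and its co-receptor endoglin, and mutations of either gene cause hereditary hemorrhagic telangiectasia with arteriovenous malformations. Activated SMADs induce the *Id* genes, and also *Smad6* and *Smad7*, whose products feed back to dampen the pathway. In the gut, BMPs made by the stroma near the crypts and villi are known for their part in epithelial patterning.

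Promoters of 2 of the target genes are shown because SMADs bind DNA at a short sequence, the Smad box. The tetramer GTCT or its reverse complement AGAC is in capitals in both. Each run of 200 bases ends 25 bases into the transcript as annotated in the RefSeq promoter table on GRCm38.p6. *Smad6* lies at chr9:64022035-64022234 on the minus strand and *Id3* at chr4:136143647-136143846 on the plus strand. The GENCODE vM21 annotation starts *Id3* earlier, at chr4:136143497, so by that annotation the whole *Id3* run lies inside the gene.
Smad6: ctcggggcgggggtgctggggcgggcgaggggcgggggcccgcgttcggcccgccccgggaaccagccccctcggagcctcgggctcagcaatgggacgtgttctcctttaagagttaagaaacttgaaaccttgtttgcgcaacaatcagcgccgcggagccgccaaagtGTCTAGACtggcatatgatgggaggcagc
Id3: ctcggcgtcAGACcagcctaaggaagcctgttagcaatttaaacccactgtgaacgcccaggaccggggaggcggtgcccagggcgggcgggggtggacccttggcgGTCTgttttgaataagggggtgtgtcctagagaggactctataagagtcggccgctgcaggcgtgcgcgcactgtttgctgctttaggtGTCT
In *Smad6* the tetramer and its complement are joined into the palindrome GTCTAGAC, which spans the annotated start from base -4 to base 4 (with no base 0). That palindrome was found in 70 of 32851 mouse promoters of 300 bases, or 0.213%, on either strand. The *Id3* run holds 3 separate tetramers, but 88.0% of all promoters hold at least 1. The GC-rich Smad site GGCGCC (11.9% of all promoters) and the nuclear receptor element AGGTCA (16.3%), both searched on either strand, were absent from the 300 bases of each of the 5 members in the table, namely *Bmp4*, *Bmp6*, *Eng*, *Smad6* and *Id3*. The table has no entry for *Bmp2*, *Bmp7*, *Acvrl1*, *Smad7* and *Id1*.

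The control library held 17341398 unique molecular identifiers (UMIs, each a counted mRNA molecule) in 6080 barcodes, replicate 1 of EC-iCOUP_OE held 17417260 in 4959, and replicate 2 held 3548983 in 1441. Although the label gives blood endothelial cells, only 2430 of the 5473 control cells kept after filtering fell in blood EC clusters, and 2442 were fibroblasts. The EC-iCOUP_OE libraries held 3410 and 985 blood EC but only 8 and 4 fibroblasts, so fibroblast levels come from the control alone. Lymphatic EC numbered 0, 899 and 126 in the control, replicate 1 and replicate 2, the order used for every set of 3 values below. *Nr2f2* stood at 115, 1697 and 1162 CPM (UMIs of the gene scaled by all UMIs of the cell type in that library) in blood EC and was also higher in pericytes, at 263, 1164 and 619 CPM. Some pericytes also carried endothelial RNA. In those without a blood EC marker UMI *Nr2f2* stood at 384, 676 and 660 CPM, at log2 ratios of 0.81 (0.03 to 1.64) and 0.78 (0.03 to 1.58). The control and replicate 2 shared 12 cell barcodes, and no other pair shared any. Most control blood EC came from female animals, 1703 cells against 111 male cells with a sex-linked transcript, compared with 1306 against 853 and 488 against 169.

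Cell types were rebuilt by clustering and are called "-like" where marker genes supported a name. They comprise arterial EC, capillary EC (CapEC), capillary resident progenitors (CRP), postcapillary venule (PCV) EC, high endothelial cells (HEC), dividing EC, lymphatic EC and 4 kinds of fibroblast. Some EC clusters go by their 3 leading genes. Cluster borders within the blood EC moved with the numerical library used for clustering. Where values were recomputed with another one and moved, they are given beside the result. Not every cell type was recomputed. A member was called when both EC-iCOUP_OE libraries stood at least 2-fold above the control, or both at least 2-fold below it, among genes with at least 50 UMIs over the 3 libraries. Calls were counted in all blood EC and in arterial EC-like, CapEC-like and PCV-like EC, and smaller types are given by their values alone.

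In the control library the ligands were mainly stromal transcripts, and each had its highest CPM in a fibroblast type (plot of ligand levels). *Bmp4*, which signals widely in the gut mesenchyme, stood at 273 CPM (95% Poisson interval 210 to 350) in Wif1 subepithelial fibroblast-like cells, 244 (226 to 263) in Adamdec1 fibroblast-like cells, 141 (127 to 156) in Pi16 adventitial fibroblast-like cells and 68.3 (55.7 to 82.8) in Ccl19 reticular-like cells. The first 2 intervals overlapped, and the others were set apart. Blood EC held 2.18 CPM of *Bmp4*, from 17 UMIs. *Bmp7*, a ligand close to *Bmp6* in sequence, was the most restricted. It reached 460 CPM (377 to 556) in the 97 Wif1 fibroblast-like cells, of which 38.1% (exact binomial interval 28.5% to 48.6%) held a *Bmp7* UMI when each cell was thinned to 1000 UMIs and 60.8% before thinning. The next type was Adamdec1 fibroblast-like cells at 26.5 CPM (20.7 to 33.4), and Pi16 fibroblast-like and Ccl19 reticular-like cells held 1 and 0 UMIs.

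*Bmp6*, which endothelium of other organs is known to make, was low everywhere. It stood at 62.9 CPM (53.8 to 73.1) in Adamdec1 fibroblast-like cells, 47.7 (23.8 to 85.4) in Wif1 cells and 21.4 (16.1 to 27.9) in Pi16 fibroblast-like cells. Among EC the Gpihbp1 Rsad2 Timp4 cluster at 24.2 CPM (7.85 to 56.4, from 5 UMIs) and CRP-like EC at 19.0 CPM (8.67 to 36.0, from 9 UMIs) came closest. Their intervals overlapped those of the Wif1 and Pi16 fibroblast types. *Bmp2*, a potent osteogenic and morphogenetic ligand (chr2:133552159-133562885, plus strand), was shared more evenly among the stroma, with 127 CPM (114 to 141) in Adamdec1, 97.8 (86.0 to 111) in Pi16, 65.1 (36.4 to 107) in Wif1 and 50.4 in Ccl19 cells. Of the 706 *Bmp2* UMIs in the control cells, 687 lay in fibroblast types and 7 in blood EC, all 7 of them in HEC-like cells.

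**Figure D1:**
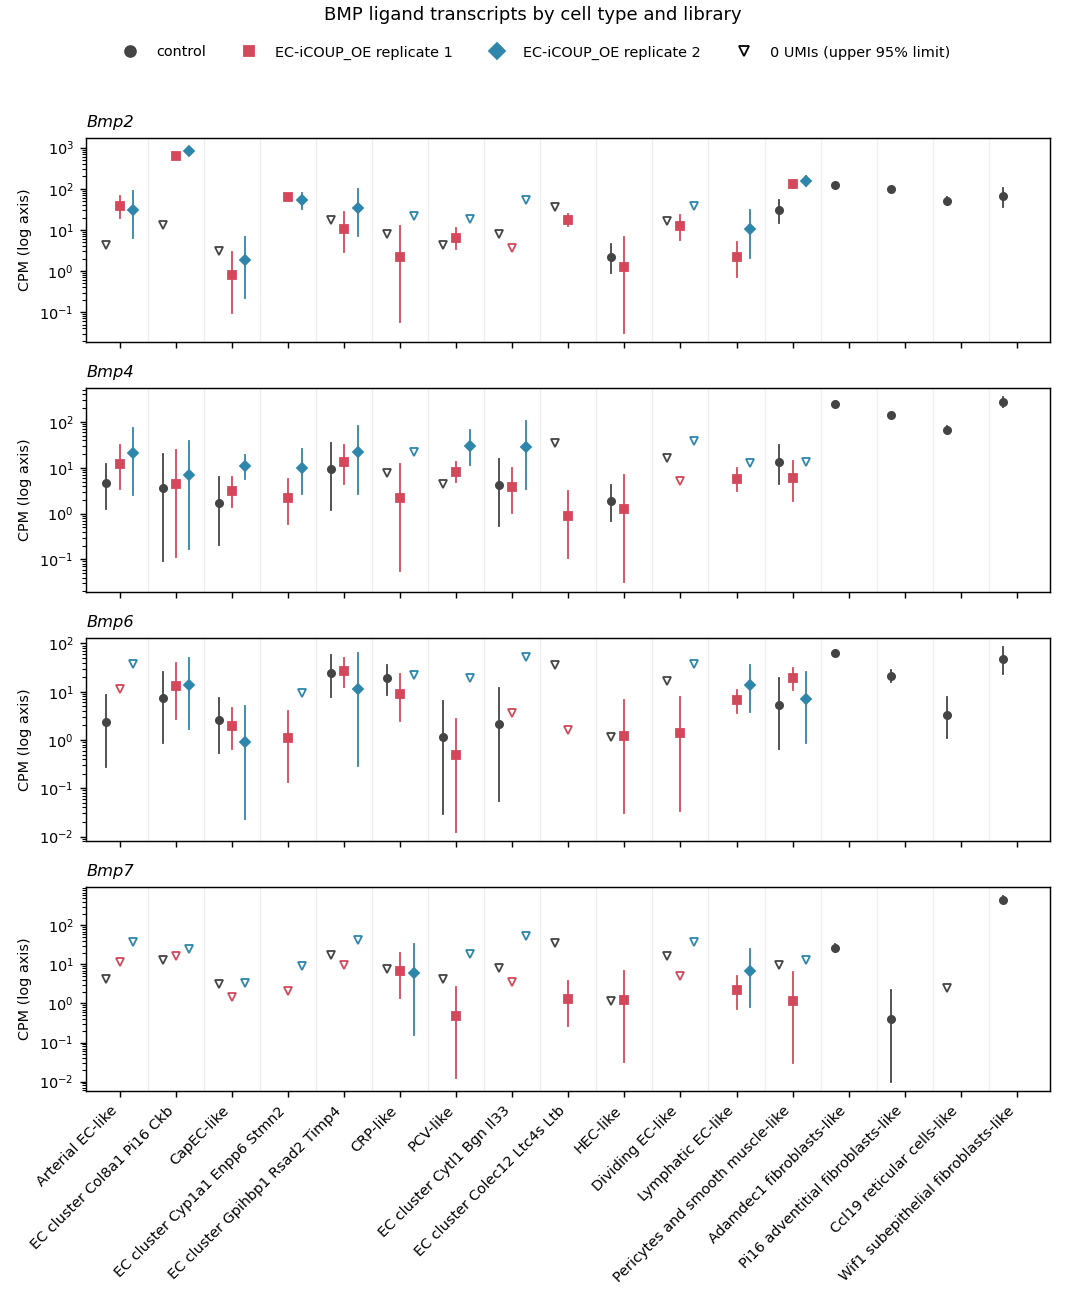
CPM of the 4 BMP ligands on log axes by cell type, with 1 point per library that holds at least 20 cells of the type and 95% Poisson intervals as bars; open triangles mark the upper limit where no UMI was counted. Control points are highest in the fibroblast types on the right, whereas *Bmp2* in the Col8a1 Pi16 Ckb EC cluster reached 615 and 847 CPM in the EC-iCOUP_OE libraries with no UMI in the control.

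*Bmp2* was the member that differed most between genotypes in blood EC. Over all blood EC it stood at 0.900 (0.362 to 1.85), 26.6 (23.8 to 29.6) and 63.7 (54.0 to 74.6) CPM, from 7, 335 and 154 UMIs. Both EC-iCOUP_OE libraries lay above the control without overlap of the counting intervals, by 4.88 (3.82 to 6.21) and 6.15 (5.07 to 7.48) on the log2 scale. Ranked by the smaller of its 2 ratios, *Bmp2* came 16th from the top of 10947 genes. It was the 1 member called among the 9 with enough UMIs in all blood EC, where 7.62% of all genes with enough UMIs were called. In male cells alone, of which the control held 111 with 0 *Bmp2* UMIs, the log2 ratios against 3 UMIs were 1.90 and 3.89. In sums of this kind fewer *Bmp2*-positive cells and less *Bmp2* RNA per cell cannot be told apart.

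An unnamed blood EC cluster led by *Col8a1*, *Pi16* and *Ckb*, with 128, 81 and 55 cells, held 138 of the 335 endothelial *Bmp2* UMIs of replicate 1 and 124 of the 154 of replicate 2. There *Bmp2* stood at 0, 615 (517 to 727) and 847 (704 to 1010) CPM. With the control set at 3 UMIs, the level was 56.4-fold higher in replicate 1 and 77.7-fold higher in replicate 2. From the counts themselves, the lower limits of the log2 ratios were 5.50 and 5.96, with no upper limit. A *Bmp2* UMI was found in none of the 128 control cells (upper limit 2.84%), in 29.6% (20% to 40.8%) of the cells of replicate 1 and in 45.5% (32.0% to 59.4%) of those of replicate 2 after thinning, compared with 43.2% and 56.4% before it. Single cells held up to 16 and 12 UMIs. In lymphocyte-like cells, a type that should lack the gene, no thinned cell of 18 in the control or 30 in replicate 1 held a *Bmp2* UMI, at median depths of 1471 and 4177.5 UMIs a cell, against 1723.5, 2289 and 2663 in the Col8a1 Pi16 Ckb cluster. Before thinning, 1 of the 30 lymphocyte-like cells held 2 *Bmp2* UMIs, which is 13.3 CPM (1.61 to 48.1) in that group. The group also carried blood EC markers at 1324 CPM, so it gives no clean background level.

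Blood EC markers in that cluster, 6 genes, summed to 4658, 4886 and 4193 CPM, and the arterial list to 5007, 4396 and 4616 CPM. PCV markers summed to 193, 1320 and 806 CPM, higher in both EC-iCOUP_OE libraries like *Bmp2*, and their part was not tested. Fibroblast markers summed to 138, 0 and 20.5 CPM and erythroid markers to 2434, 0 and 27.3 CPM, and their part was not tested either. Among cells with no UMI of any fibroblast or pericyte marker the *Bmp2* counts were 0 in 91, 127 in 74 and 108 in 48 cells. Cells with at least 1 *Nr2f2* UMI held *Bmp2* in 31.6% (19.9% to 45.2%) of 57 against 25% (9.77% to 46.7%) of 24 without one in replicate 1, and in 58.6% (38.9% to 76.5%) of 29 against 30.8% (14.3% to 51.8%) of 26 in replicate 2, all after thinning. The intervals overlapped within each library. Of the 2166 genes with enough UMIs in this cluster, *Bmp2* came 2nd by the smaller ratio. Clustered with another numerical library the cluster held 128, 85 and 59 cells. The *Bmp2* log2 ratios there, with the control set as for the folds above, were 5.81 and 6.28. They are not lower limits.

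Other blood EC of the EC-iCOUP_OE libraries held *Bmp2* at lower levels. The Cyp1a1 Enpp6 Stmn2 cluster, which held 5 control cells and was not compared, reached 63.8 (52.7 to 76.6) and 52.4 (32.5 to 80.1) CPM in replicates 1 and 2, from 115 and 21 UMIs. Arterial EC-like cells counted 0, 12 and 3 UMIs, or 0, 37.2 (19.2 to 65.1) and 30.9 (6.37 to 90.3) CPM. With the control set at 3 UMIs, replicate 1 was 10.7-fold higher there. The lower limit of its log2 ratio was 2.90, and the 3 UMIs of replicate 2 allow no fold. The interval of replicate 1 overlapped that of its lymphocyte-like cells. Those cells carried blood EC markers at 1324 CPM and give no clean background level. The overlap thus cannot decide whether *Bmp2* in arterial EC-like cells exceeded background. CapEC-like cells, the largest class, counted 0, 2 and 2 UMIs in 726, 1016 and 498 cells, so no difference was detectable at this depth. PCV-like EC held 0, 13 and 0 UMIs, and their replicate 1 interval likewise overlapped that of the lymphocyte-like cells. When the Col8a1 Pi16 Ckb cluster was left out, *Bmp2* in the remaining blood EC was still called, at log2 ratios of 4.09 and 3.82. That comparison is largely between different clusters, since most of the remaining UMIs of replicates 1 and 2, 115 and 21, lay in the Cyp1a1 Enpp6 Stmn2 cluster and the control UMIs in HEC-like cells.

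**Figure D2:**
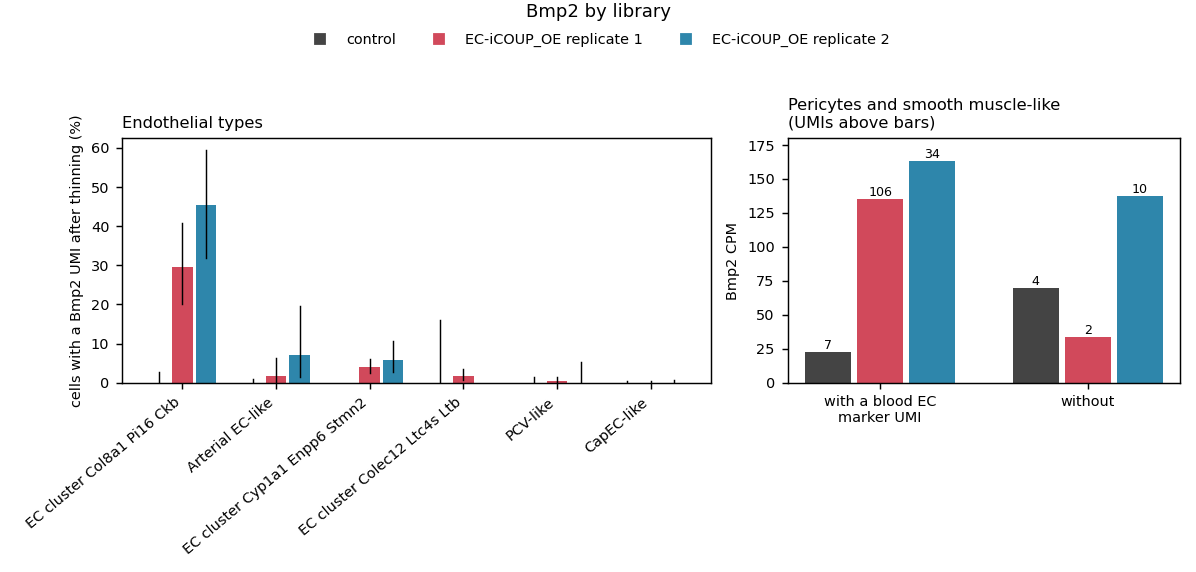
Left, percentage of cells with a *Bmp2* UMI after thinning each cell to 1000 UMIs in 6 endothelial types, with exact binomial 95% intervals; right, *Bmp2* CPM in pericytes and smooth muscle-like cells with and without a UMI of the 6 blood EC markers, with UMI counts above the bars. In the Col8a1 Pi16 Ckb cluster 0%, 29.6% and 45.5% of cells held *Bmp2*, and in pericytes without endothelial markers the counts were only 4, 2 and 10 UMIs.

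In pericytes and smooth muscle-like cells *Bmp2* stood at 29.8 (14.9 to 53.3), 128 (105 to 154) and 156 (114 to 210) CPM from 11, 108 and 44 UMIs, with log2 ratios of 2.10 (1.21 to 3.15) and 2.39 (1.42 to 3.50). Both EC-iCOUP_OE intervals lay above that of the control. These cells also carried endothelial RNA, and blood EC markers summed to 2279, 2382 and 487 CPM in them. In the cells that held a blood EC marker UMI, *Bmp2* counted 7, 106 and 34 UMIs, with log2 ratios of 2.59 (1.5 to 3.94) and 2.86 (1.67 to 4.28). In the 30, 23 and 26 cells that held none it counted 4, 2 and 10 UMIs, with log2 ratios of -1.05 (-4.51 to 1.75) and 0.98 (-0.82 to 3.11), so a difference was not detectable in them.

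The other ligands stayed near the floor of detection in blood EC. *Bmp4* summed to 2.18 (1.27 to 3.50), 3.72 (2.74 to 4.95) and 13.2 (9.05 to 18.7) CPM, and replicate 2 alone stood clear of the control, at a log2 ratio of 2.60 (1.71 to 3.54) against 0.77 (-0.06 to 1.66) in replicate 1. *Bmp4* in CapEC-like EC counted 2, 8 and 12 UMIs, and in PCV-like EC 0, 17 and 6. *Bmp6* summed to 2.96, 2.14 and 1.65 CPM from 23, 27 and 4 UMIs in blood EC, with overlapping intervals. *Bmp7* counted 0, 8 and 1 UMIs in the 2430, 3410 and 985 blood EC, and 0 in all 3 libraries in CapEC-like, arterial EC-like and Col8a1 Pi16 Ckb cluster cells.

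Neither receptor was called, and *Acvrl1* had a graded distribution over the vascular tree (plot of receptor and SMAD levels). *Acvrl1*, the type I receptor kinase ALK1 (chr15:101128522-101145336, plus strand), stood at 437 (394 to 483), 484 (411 to 566) and 484 (356 to 644) CPM in arterial EC-like cells, the highest type in every library. It came to 409, 371 and 363 CPM in CapEC-like, 277, 289 and 256 in PCV-like and 255, 189 and 267 in CRP-like EC. HEC-like cells stood at 89.8 (79.6 to 101) CPM in the control and 192 (163 to 224) in replicate 1, and lymphatic EC-like cells at 73.8 and 96.5 in replicates 1 and 2. Every neighbouring pair in the control order overlapped, but the arterial and HEC-like intervals of the control were far apart. The control intervals of arterial, CapEC-like, PCV-like and CRP-like EC all lay above those of the 4 fibroblast types, which held 56.4 to 107 CPM.

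*Eng*, the ALK1 co-receptor (chr2:32646595-32682669, plus strand), was more even. In the control it ran from 362 CPM in dividing EC-like to 908 (799 to 1028) in the Col8a1 Pi16 Ckb cluster, and in the other named blood EC types from 433 in HEC-like to 733 in CRP-like cells. CapEC-like EC held 530, 602 and 620 CPM, arterial EC-like 568, 466 and 762, PCV-like 557, 594 and 634 and the Col8a1 Pi16 Ckb cluster 908, 629 and 881. The log2 ratio farthest from 0 among these was -0.53 (-0.84 to -0.23), in replicate 1 of the Col8a1 Pi16 Ckb cluster, and replicate 2 there gave -0.04 (-0.36 to 0.27). Fibroblast types held 71.3 to 92.4 CPM of *Eng*, except Wif1 cells at 247 (187 to 321). Over all blood EC, *Acvrl1* stood at log2 ratios of 0.35 and 0.48 and *Eng* at 0.22 and 0.34, where the median over all genes was 0.15 and 0.02. Blood EC as a whole were made of different clusters in the genotypes. HEC-like cells, which held the least *Acvrl1* of the control blood EC, gave 3139911 of the 7780567 control UMIs but 807998 of 12615903 in replicate 1 and 11123 of 2418126 in replicate 2. Within types *Acvrl1* stood at log2 ratios of -0.14 and -0.17 in CapEC-like and 0.06 and -0.11 in PCV-like EC. Genes annotated inside *Eng* on its own strand (*Mir1954*, *Gm47291* and *Gm26236*) could share reads with it.

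**Figure D3:**
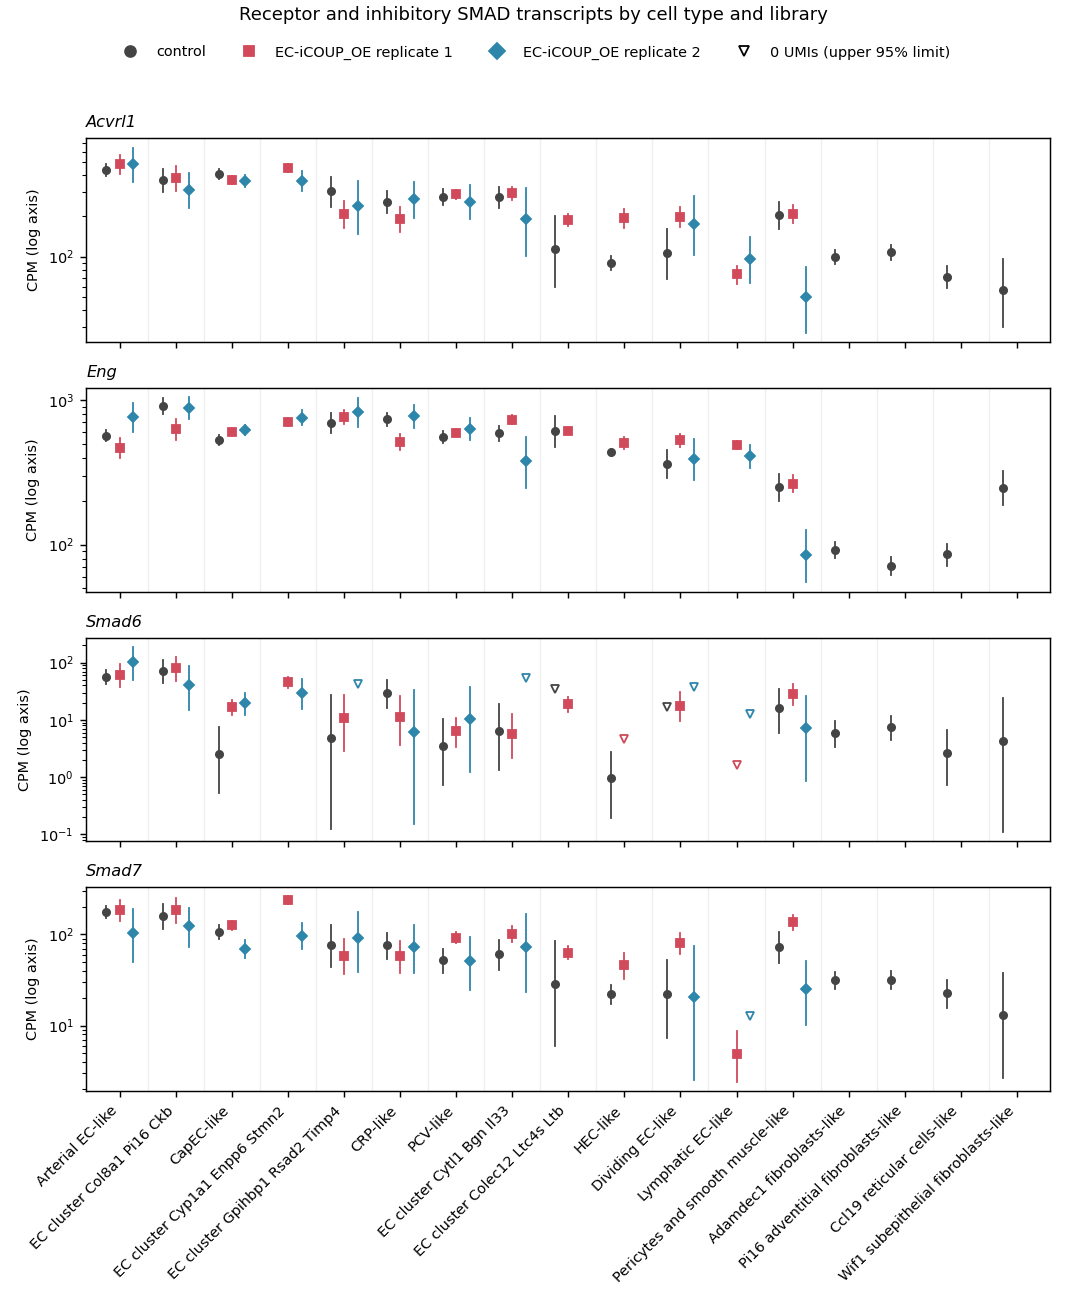
CPM of *Acvrl1*, *Eng*, *Smad6* and *Smad7* on log axes by cell type, with 1 point per library that holds at least 20 cells of the type, 95% Poisson bars and triangles for 0 UMIs. The 3 libraries lie close together for *Acvrl1* in arterial EC-like cells, at 437, 484 and 484 CPM, but not in pericytes, at 203, 207 and 49.8. HEC-like cells stand at 89.8 CPM of *Acvrl1* in the control and 192 in replicate 1. In the control both SMADs are highest in arterial EC-like cells and the Col8a1 Pi16 Ckb cluster. *Smad6* stands at 56.8 CPM in control arterial EC-like cells against 0.955 in HEC-like cells.

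In pericytes and smooth muscle-like cells both receptors were lower in replicate 2 only. *Acvrl1* stood at 203, 207 and 49.8 CPM and *Eng* at 249, 264 and 85.4 CPM, and *Smad7* at 73.1, 136 and 24.9 CPM. This is the same order of libraries as the summed blood EC markers there, 2279, 2382 and 487 CPM. The part of that endothelial RNA in the receptor values was not tested.

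In the control the inhibitory SMADs were highest in arterial EC-like cells and the Col8a1 Pi16 Ckb cluster. *Smad6*, whose product blocks BMP type I receptors and SMAD1 (chr9:63953076-64022059, minus strand), stood at 56.8 (42.0 to 75.1), 62.1 (37.9 to 95.9) and 103 (49.4 to 189) CPM in arterial EC-like cells and at 72.7, 80.2 and 41.0 in the Col8a1 Pi16 Ckb cluster. In the control it was 29.5 (16.1 to 49.5) CPM in CRP-like, 3.53 in PCV-like, 2.56 in CapEC-like and 0.955 (0.197 to 2.79) in HEC-like cells. The arterial interval of the control overlapped that of CRP-like EC and lay above those of the other 3 types. No *Smad6* UMI was counted in the 899 and 126 lymphatic EC-like cells. *Smad7*, which inhibits both BMP and TGF-beta receptors, stood at 177 (150 to 208), 186 (142 to 240) and 103 (49.4 to 189) CPM in arterial EC-like, 107, 127 and 69.5 in CapEC-like and 51.8, 92.6 and 51.1 in PCV-like cells, and at 22.0 (17.1 to 27.8) CPM in control HEC-like cells. In replicate 1 the most *Smad7* was in the Cyp1a1 Enpp6 Stmn2 cluster, at 238 (216 to 262) CPM against 97.4 in replicate 2, a cluster with PCV markers at 2898 and 4704 CPM and arterial markers at 2524 and 2307 CPM.

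*Smad6* was called higher in CapEC-like EC, the 1 member called of 6, where 7.57% of genes were called. It stood at 2.56 (0.527 to 7.47), 16.7 (12.0 to 22.5) and 19.4 (12.0 to 29.7) CPM from 3, 42 and 21 UMIs, with log2 ratios of 2.70 (1.06 to 5.04) and 2.93 (1.18 to 5.32). Both EC-iCOUP_OE intervals lay above that of the control, which rests on 3 UMIs. The size of the ratio moved with the cluster borders, and clustering with another numerical library gave log2 ratios of 1.08 and 1.31 for *Smad6*, still called. CapEC-like EC are also made of different clusters in the genotypes, which cannot be told apart from a change within cells. Cluster 0 holds 14, 830 and 325 cells, cluster 4 holds 467, 43 and 30, and cluster 5 holds 245, 143 and 143. The name of cluster 0 rests on 2 CapEC markers among its 10 leading genes. In replicates 1 and 2 it carried more PCV marker RNA, 2924 and 4344 CPM, than CapEC marker RNA, 1569 and 2393 CPM. In cluster 5, the most evenly filled, *Smad6* counted 2, 8 and 9 UMIs, with log2 ratios of 2.78 (0.46 to 6.05) and 3.02 (0.75 to 6.27), too few to be called. In female cells alone *Smad6* stood at 2.66, 10.4 and 11.1 CPM from 2, 10 and 6 UMIs, with log2 ratios of 1.97 and 2.06, also below the 50 UMIs that a call needs.

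In arterial EC-like cells none of 6 members was called, beside 4.17% of genes, and in PCV-like EC none of 5, beside 5.43%. *Smad6* in arterial EC-like cells stood at log2 ratios of 0.13 (-0.70 to 0.91) and 0.86 (-0.29 to 1.86). *Smad7* in PCV-like EC stood at 0.84 (0.36 to 1.34) and -0.02 (-1.18 to 0.99), and the interval of replicate 2 included 0. In the Colec12 Ltc4s Ltb cluster, with 21, 423 and 19 cells, *Smad6* counted 0, 43 and 4 UMIs, or 0, 18.8 and 58.0 CPM. The upper limit of the control was 35.2 CPM. *Smad7* counted 3, 145 and 5 UMIs there, or 28.6, 63.3 and 72.4 CPM, and both ratio intervals included 0. Dividing EC-like cells, 23, 140 and 21, held 22.3, 80.4 and 20.7 CPM of *Smad7*, higher than the control in replicate 1 alone.

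*Id1* and *Id3* encode helix-loop-helix proteins that lack a DNA-binding domain and are direct BMP-SMAD targets. Among control blood EC both were highest in the Col8a1 Pi16 Ckb cluster and lowest in HEC-like cells (plot of Id gene levels). *Id1* (chr2:152736251-152737410, plus strand) stood in the control at 1551 (1408 to 1706) CPM in that cluster, 1285 (1136 to 1450) in the Gpihbp1 Rsad2 Timp4 cluster, 1125 (1055 to 1198) in arterial EC-like, 752 (676 to 834) in CRP-like, 742 (694 to 793) in CapEC-like, 320 (283 to 361) in PCV-like and 143 (130 to 157) in HEC-like cells. The first 2 intervals overlapped, as did the second and the third and those of CRP-like and CapEC-like EC. In the replicates the Col8a1 Pi16 Ckb cluster was first again, at 1257 and 1386 CPM, and arterial EC-like cells stood at 999 and 628 CPM. Fibroblast types held 3.51 to 13.9 CPM of *Id1*, except Wif1 cells at 139 (95 to 196) CPM, the type with the most *Bmp7*. *Id3* (chr4:136143497-136145755, plus strand) was abundant outside EC too, at 1016 CPM in Wif1 and 321 to 577 in the other fibroblast types and at 1481 in control pericytes.

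**Figure D4:**
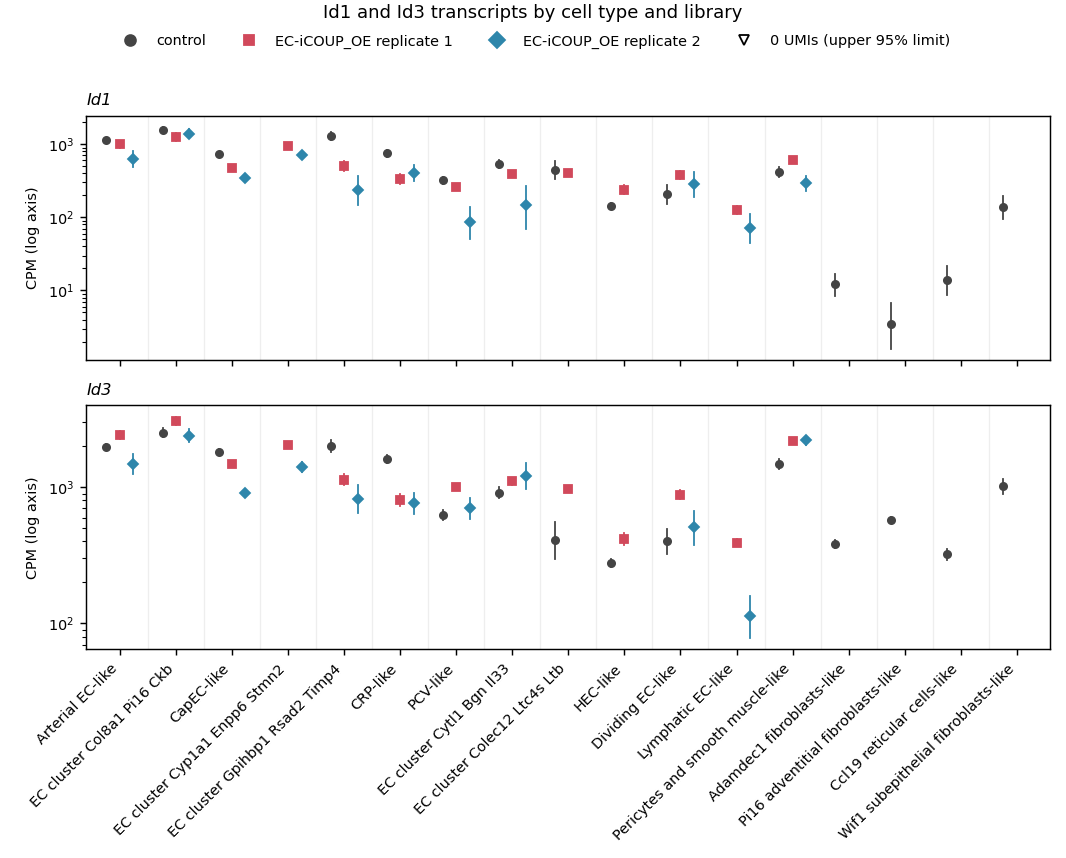
CPM of *Id1* and *Id3* on log axes by cell type, with 1 point per library that holds at least 20 cells of the type and 95% Poisson bars. The Gpihbp1 Rsad2 Timp4 cluster sits at 1285 CPM of *Id1* in the control and at 504 and 238 in the EC-iCOUP_OE libraries, while the 3 libraries are closer in the Col8a1 Pi16 Ckb cluster at 1551, 1257 and 1386.

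Neither Id gene was called in the 4 comparisons in which calls were counted. Over all blood EC *Id1* stood at 509 (494 to 526), 490 (478 to 503) and 447 (420 to 474) CPM, with log2 ratios of -0.06 and -0.19, and *Id3* at ratios of 0.37 and 0.11, in populations that differ in makeup as given for *Acvrl1*, while single types lay on either side of the control. In the Gpihbp1 Rsad2 Timp4 cluster, with 116, 119 and 40 cells, *Id1* stood at 1285 (1136 to 1450), 504 (435 to 581) and 238 (147 to 364) CPM. The control lay above both EC-iCOUP_OE libraries with no overlap, at log2 ratios of -1.35 (-1.63 to -1.08) and -2.43 (-3.15 to -1.79). *Id3* there stood at 2010, 1141 and 827 CPM, with log2 ratios of -0.82 (-1.02 to -0.62) and -1.28 (-1.66 to -0.92). In the same cells CapEC markers summed to 4920, 2223 and 2662 CPM and arterial markers to 1561, 355 and 736 CPM. Their part in the result was not tested. With another numerical library the interferon markers that had picked out this cluster picked out only 16, 12 and 6 cells. *Id1* and *Id3* were not compared in those cells.

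In CRP-like EC, which numbered 115 and 58 cells in the replicates and more in the control, *Id1* stood at 752 (676 to 834), 338 (287 to 396) and 407 (315 to 516) CPM, with log2 ratios of -1.15 (-1.44 to -0.88) and -0.89 (-1.29 to -0.51). *Id3* stood at 1620 (1508 to 1739), 812 (731 to 899) and 765 (637 to 910) CPM, or 0.501 and 0.472 of the control. For both genes the control lay above both EC-iCOUP_OE libraries with no overlap. After thinning, 41.7%, 28.7% and 29.3% of these cells held *Id1* and 69.1%, 42.6% and 46.6% held *Id3*. The borders of this type also moved between clusterings. With another numerical library CRP-like EC numbered 123, 184 and 62 cells. The *Id1* log2 ratios were then -1.41 and -2.09, and the *Id3* ratios were -1.02 and -1.64. Both genes were then past 2-fold in both libraries, which neither was in the clustering reported here. CRP-like EC join cluster 9, with 134, 106 and 35 cells, and cluster 14, with 41, 9 and 23. Clustered at resolution 1.6, which left 134, 107 and 35 CRP-like EC, the log2 ratios were -1.24 and -0.99 for *Id1* and -1.11 and -1.86 for *Id3*. In the CRP-like EC arterial markers summed to 1091, 523 and 394 CPM and CRP markers to 659, 1401 and 1990 CPM, and their part was not tested.

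In CapEC-like EC *Id1* stood at 742 (694 to 793), 475 (448 to 502) and 347 (313 to 384) CPM, with log2 ratios of -0.65 and -1.10, and *Id3* at 1827, 1470 and 912 CPM, or 0.805 and 0.499 of the control. Neither was called, because replicate 1 missed the 2-fold limit. In the CapEC-like EC, CapEC markers summed to 2028, 1684 and 2611 CPM. PCV markers there summed to 214, 2633 and 3279 CPM and arterial markers to 1204, 559 and 735 CPM. Dissociation response genes summed to 10034, 15871 and 22597 CPM and erythroid markers to 5151, 327 and 35.2 CPM there. The part of these lists in the *Id1*, *Id3* and *Smad6* values was not tested. Within cluster 5 the *Id1* values were 839 (758 to 925), 952 (840 to 1074) and 684 (588 to 791) CPM. Within cluster 4 they were 704 (641 to 770), 565 (404 to 769) and 475 (294 to 726) CPM. The intervals of both replicates overlapped that of the control in both clusters. The log2 ratio of replicate 2 in cluster 5 was -0.29 (-0.56 to -0.04). Cluster 0, which holds most EC-iCOUP_OE cells of the class, stood at 97.0 (20 to 283), 411 (384 to 439) and 224 (192 to 260) CPM of *Id1*, the opposite order. The control value there rests on 3 UMIs in 14 cells that carried erythroid markers at 91905 CPM, and the log2 ratios were 2.08 (0.53 to 4.36) and 1.21 (-0.36 to 3.50). Within each EC-iCOUP_OE library, CapEC-like cells with and without an *Nr2f2* UMI held *Id1* in overlapping shares, 29.2% (26.1% to 32.5%) of 798 against 32.6% (26.4% to 39.2%) of 218 in replicate 1 and 20% (15.7% to 24.8%) of 315 against 24.6% (18.5% to 31.5%) of 183 in replicate 2.

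In arterial EC-like cells *Id1* stood at 1125, 999 and 628 CPM and *Id3* at 1977, 2424 and 1484, with the replicates on either side of the control for *Id3*. The Cyp1a1 Enpp6 Stmn2 cluster, found almost only in the EC-iCOUP_OE libraries, held 952 and 719 CPM of *Id1* and 2037 and 1418 of *Id3* in replicates 1 and 2. PCV-like EC held 320 (283 to 361), 258 (236 to 281) and 86.9 (50.6 to 139) CPM of *Id1*. Both replicates stood below the control there, with log2 ratios of -0.31 (-0.53 to -0.10) and -1.88 (-2.68 to -1.18), whose intervals did not overlap. *Id3* in PCV-like EC stood at 625, 998 and 701 CPM, and the ratio interval of replicate 2 included 0. Both replicates were above the control for *Id3* in the Colec12 Ltc4s Ltb cluster, at 410 (297 to 553), 979 (938 to 1020) and 826 (626 to 1070) CPM. That cluster held 21, 423 and 19 cells here but 144, 449 and 24 with another numerical library. Its *Id3* values were not recomputed there. In pericytes both replicates were above the control as well, at 1481, 2184 and 2219 CPM. In those pericytes fibroblast markers summed to 1949, 459 and 466 CPM and pericyte and smooth muscle markers to 12799, 16834 and 21904 CPM, and their part in the *Id3* and *Bmp2* values was not tested. Pericytes without a blood EC marker UMI had *Id3* log2 ratios of 0.38 (-0.07 to 0.84) and 0.87 (0.46 to 1.29). HEC-like cells had 143 and 238 CPM of *Id1* in the control and replicate 1, and replicate 2 held 3 such cells. Lymphatic EC-like cells held *Id1* in 10.5% and 7.14% of thinned cells of replicates 1 and 2. Lymphocyte-like cells held it in 0 of 18 in the control and in 20% (7.71% to 38.6%) of 30 in replicate 1, where they also carried blood EC markers at 1324 CPM and so give no clean background level.

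**Figure D5:**
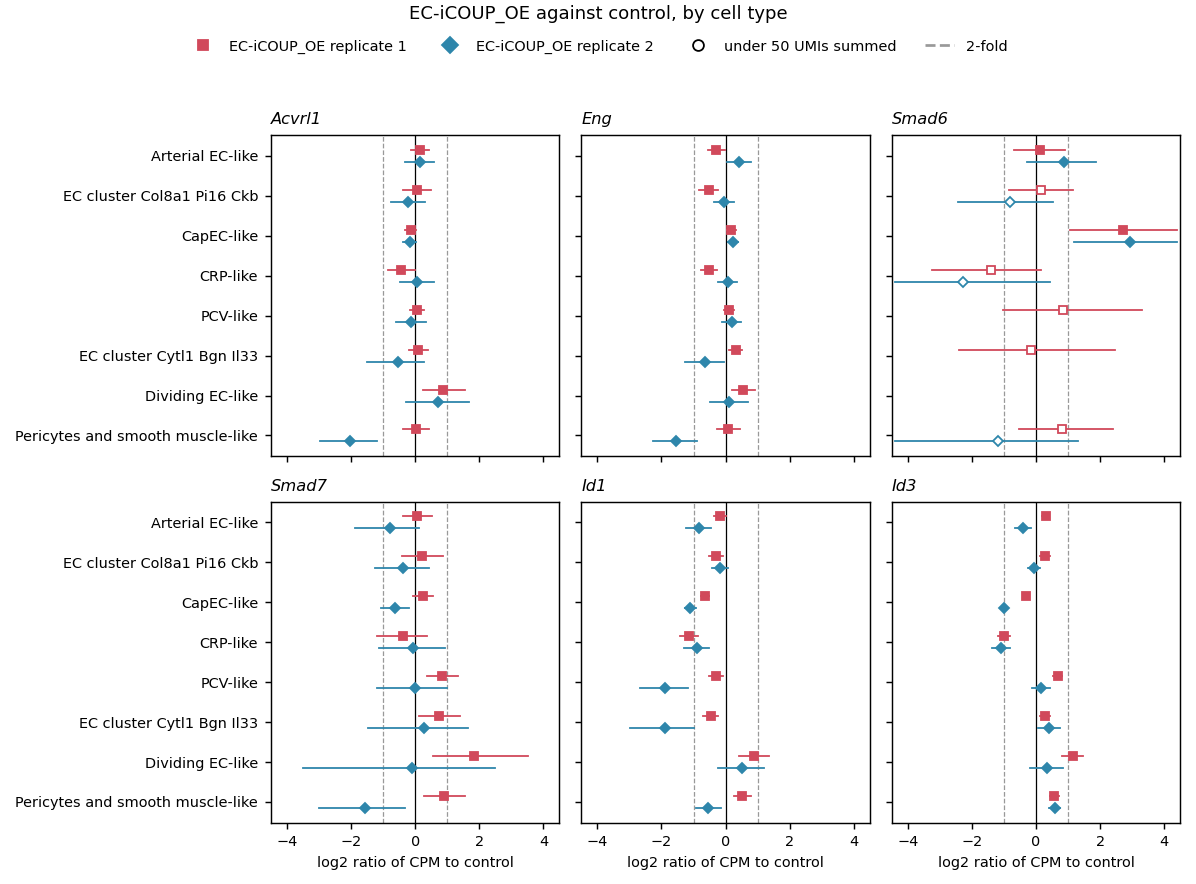
Log2 ratio of CPM in each EC-iCOUP_OE library to the control for *Acvrl1*, *Eng*, *Smad6*, *Smad7*, *Id1* and *Id3* in 8 cell types, with exact 95% counting intervals cut at the axis limits, open symbols below 50 UMIs and dashed lines at 2-fold; genes at 0 UMIs in the control or in a replicate are left out. *Acvrl1* in CapEC-like and PCV-like EC lies inside the 2-fold lines in both libraries, whereas *Id1* in CRP-like EC sits at -1.15 and -0.89.

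The other genes of the pathway were taken from lists of 10 further ligands, 11 receptors and co-receptors, 8 SMADs and SMAD regulators, 16 secreted antagonists and modulators and 8 target genes, 53 in all. Of the 28 with enough UMIs in all blood EC, 0 were called in either direction, beside 7.62% of all genes with enough UMIs. Their median log2 ratios were 0.34 and 0.35, against 0.15 and 0.02 over all genes, in populations that differ in makeup as given for *Acvrl1*. Within types the medians of the listed genes with enough UMIs were 0.00 and 0.15 in CapEC-like, 0.10 and -0.49 in arterial EC-like and 0.34 and -0.15 in PCV-like EC. Over all genes they were 0.02 and -0.12, -0.06 and -0.15, and 0.04 and -0.16 in the same types. In CapEC-like EC 2 of 26 were called, both higher, beside 7.57% of genes. The co-receptor gene *Tgfbr3* (betaglycan) stood at 25.6, 68.3 and 55.6 CPM. *Smad3*, a TGF-beta SMAD, stood at 5.97, 15.5 and 12.0 CPM from 7, 39 and 13 UMIs. In PCV-like EC 1 of 20 was called, beside 5.43% of genes. It was *Smad4*, encoding the common partner SMAD, which was higher at 20, 57.0 and 46.0 CPM. In arterial EC-like cells 1 of 12 was called, beside 4.17% of genes. It was *Smad1*, a BMP-activated SMAD, which was lower at 74.2, 18.6 and 30.9 CPM from 64, 6 and 3 UMIs. The counting interval of the ratio in replicate 2 included 0 for *Smad1*, *Smad3* and *Smad4*. Among these lists, types with at least 20 cells reached the highest CPM for *Bmp5* in control Wif1 cells at 443, *Tgfbr2* in replicate 1 lymphatic EC-like cells at 602, *Smad1* in the same cells at 234, *Nbl1*, a BMP antagonist, in control Wif1 cells at 6003, and *Tmem100*, an endothelial ALK1 target, in replicate 2 arterial EC-like cells at 402.

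Across 41 profiles of cell type and library with at least 20 cells each, the genes whose log2(CPM + 10) followed a member most closely among 9950 genes were found by Pearson's r, given as a description because profiles of 1 library share depth and preparation. *Bmp2* was closest to *Lox* (0.88), *Gadd45b* (0.72) and *Mfap2* (0.71). *Bmp4* was closest to *Mmp2* (0.88), *Kcnk2* (0.88) and *Ssc5d* (0.88), and *Bmp7* to *Bmp5* (0.92), *Mmp10* (0.91) and *Rbp4* (0.89). *Bmp6* had no close match, with *Lpl* first at 0.71, then *Fblim1* at 0.69 and *Slc40a1* at 0.68. *Id1* followed *Epas1* (0.92), *Cd93* (0.87) and *Luzp1* (0.86). Among the members, *Acvrl1* and *Smad7* (0.84), *Id3* and *Smad7* (0.81), *Eng* and *Id1* (0.75) and *Smad6* and *Smad7* (0.73) were the closest pairs, while *Bmp2* and *Id1* were unrelated over these profiles (-0.01).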

How the data were processed

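Single-cell 3′ RNA sequencing of sorted PP cells on the 10x Chromium platform gave 1 control library and 2 EC-iCOUP_OE libraries. The authors aligned reads to the mm10 transcriptome with Cell Ranger and deposited raw UMI counts per gene and barcode, without normalization. The file headers give Cell Ranger 3.0.2 for the control and replicate 2 and 3.1.0 for replicate 1, where the submitters' processing notes name 3.0.2.

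The barcodes kept (5473, 4750 and 1243) passed minimums of 500 genes and 1000 UMIs and a limit of 10% on mitochondrial UMIs. The 240, 180 and 12 cells with the highest Scrublet scores (scanpy 1.11.5), 0.8% per 1000 cells, were left out as doublets, because the automatic threshold marked only 6 cells in each EC-iCOUP_OE library. Integration and clustering used Seurat 5.3.0 under R 4.3.3 (2000 variable genes, reciprocal PCA, 30 components, 20 neighbours, Louvain resolution 1, seed 1), and blood EC were reclustered alone. Clusters were named from marker lists, so differences from the study's cell types may come from rebuilt names. Linear algebra ran on 1 fixed OpenBLAS kernel (Haswell), because cluster borders changed with the kernel, and this was fixed after results under an unfixed one were known. UMIs were summed per cell type and library and scaled by total UMIs to CPM.

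Intervals at 95% are exact Poisson for counts, conditional exact for ratios and Clopper-Pearson for shares, and cover counting error only. Where the control held 0 UMIs a fold was computed against 3 UMIs. No comparison used a type below 10 cells in any library. The call rule was run on simulated Poisson counts drawn from a common profile. These held no variation between animals or libraries and no differences in cell makeup, so the run cannot measure calls that arise from them. The members and lists were chosen with earlier results of these data known. Text values were fixed by rule: the 10 members, listed pathway genes that were called or had the highest CPM of their list, and the 3 genes closest to each of *Bmp2*, *Bmp4*, *Bmp6*, *Bmp7* and *Id1* with at least 200 UMIs. Alternatives were TMM scaling (edgeR 4.0.16), other count and depth minimums, means over cells, doublets kept, other resolutions, another OpenBLAS kernel (Nehalem, chosen after seeing the data), cells of 1 sex, single clusters and single libraries. Gene positions are from GENCODE vM21 on GRCm38. Python 3.11.15 with numpy 2.4.6, scipy 1.17.1, pandas 2.3.3 and matplotlib 3.10.9 was used.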

Additional observations from a re-analysis of the deposited data

Results flagged for a closer look

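*Id3* moved in opposite directions in different cell types, with both EC-iCOUP_OE libraries above the control in one type and both below it in the other. The mean log2 ratio of *Id3* in the Colec12 Ltc4s Ltb cluster exceeded that in CapEC-like EC by 1.79, that in CRP-like EC by 2.17 and that in the Gpihbp1 Rsad2 Timp4 cluster by 2.18. In the Cytl1 Bgn Il33 cluster it exceeded that in the same 3 types by 1.01, 1.39 and 1.40, and in pericytes and smooth muscle-like cells by 1.23, 1.61 and 1.62. Every pair rests on the same 3 libraries and 1 control, and the difference between types was not tested. For pericytes without a blood EC marker UMI, the *Id3* ratio interval of replicate 1 included 0. The Colec12 Ltc4s Ltb cluster held 21 control cells, against 144 with another numerical library, and its *Id3* ratio was not recomputed there. The Cytl1 Bgn Il33 cluster held 165, 283 and 24 cells, with *Id3* at 914, 1111 and 1220 CPM. Only the pooled CapEC-like EC had both libraries below the control for *Id3*. The 2 libraries lay on either side of it within each of their clusters. The log2 ratios were 0.34 and -0.62 in cluster 0, 0.09 and -0.71 in cluster 4 and 0.14 and -0.31 in cluster 5, which holds 245, 143 and 143 cells. In each of these clusters the interval of replicate 1 included 0 and that of replicate 2 lay below 0.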

How the results depend on the processing

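With 1 control library the animals' variation cannot be measured, replicate 2 held few cells of most types, and the cell types were rebuilt from markers. No paired analysis was possible because the groups share only 1 replicate number, that of the 1 control library. Repeating the clustering with another OpenBLAS kernel, chosen after seeing the data, gave 13 blood EC clusters in place of 15 (adjusted Rand index 0.807 over 6825 cells), changed no count of members called in the 4 comparisons in which calls were counted, and moved *Smad6* in CapEC-like EC as given above. In CRP-like EC it put *Id1* and *Id3* past 2-fold lower in both libraries. Of 502 alternative values for the members, 395 moved by less than the spread between the EC-iCOUP_OE libraries and 105 by more. The other 2 changed sign where the member had passed the 2-fold rule, 1 of them through the limit of 3 UMIs alone. With a replicate left out, a value moves by less than the spread between the EC-iCOUP_OE libraries by construction. Such values are among the 395 and say nothing on stability. Sign changes of members that had not passed the rule were not counted apart. The mean log2 ratio of *Acvrl1* in CapEC-like EC, for example, went from -0.158 to 0.261 within cluster 4. The number of members called in arterial EC-like cells stayed at 0. In PCV-like EC it went from 0 to 1 with at least 20 UMIs (*Bmp4* higher) and to 1 in male cells (*Smad7* higher, against 1 UMI in 14 control cells). The number there ranged from 0 to 1 when a replicate was left out (*Id1* lower without replicate 1). With a replicate left out, a call rests on the other replicate alone. In CapEC-like EC it went from 1 to 0 with at least 200 UMIs, in female cells, in male cells, within cluster 4, within cluster 5 and, chosen after seeing the data, without cluster 0. In each of these *Smad6* had fewer UMIs than the minimum, and its log2 ratios were 1.97 and 2.06 in female cells, 2.78 and 3.02 within cluster 5 and 3.30 and 3.62 without cluster 0. The count ranged from 1 to 3 when a replicate was left out, since *Id1* and *Id3* are also lower without replicate 1. With at least 2000 UMIs a cell the count stayed at 1, but the member called was *Id1* (-1.04 and -1.55) and not *Smad6*, which had too few UMIs. In all blood EC it went from 1 to 2 in male cells (*Bmp2* and *Smad6*, against 0 and 2 UMIs in 111 control cells). The count there ranged from 1 to 2 when a replicate was left out (*Bmp2* and *Bmp4* without replicate 1). The share of all genes called was not computed under these alternatives. For *Smad6* in CapEC-like EC the value was -2.01 in male cells. There 23 control cells held 0 UMIs and were set at 3, so the value reflects that setting and is no reversal. The mean log2 ratio of *Bmp2* in pericytes reversed to -0.035 in cells with no blood EC marker UMI, an alternative chosen after seeing the data. In the control library all 4 ligands were highest in a fibroblast type by CPM and by thinned share. TMM scaling shifted ratios by up to 0.12 on the log2 scale and changed no call. Male cells alone gave no value for arterial EC-like, Col8a1 Pi16 Ckb cluster, CRP-like and pericyte cells, where a library held fewer than 10, and fibroblasts gave none.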
